A study of Saccharomyces cerevisiae with 7 samples.

Results

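DPS1 and THS1 encode the cytosolic aspartyl-tRNA and threonyl-tRNA synthetases of budding yeast, and their readthrough of the poly(A) site was followed in 7 GRO-seq libraries. They are 2 of the 337 genes in the table analysed and were matched by name, DPS1 as YLL018C and THS1 as YIL078W. Both were chosen by their readthrough in sua7-1 against wt, measured in these same libraries, so the difference between strains is described for them and not tested. GRO-seq sequences RNA that engaged polymerases extend in a run-on reaction. The readthrough index (RTI) of a gene compares reads in a window that starts 50 nt and ends 500 nt beyond the annotated end of the mRNA with reads in the mirror window upstream, as a ratio. Because both windows have the same length and lie in the same library, neither gene length nor library size enters the ratio.

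The strains are wt (4 libraries, replicates 1 to 4) and sua7-1 (3 libraries, replicates 2, 3 and 4), both in the BY4733 background, which lacks functional HIS3, TRP1, LEU2, MET15 and URA3. The sua7-1 allele changes a single residue of TFIIB, is cold-sensitive and alters start site selection. All cultures were grown in YPD at 30 °C to an A600 of 0.8 and labelled with BrUTP for 5 min at 30 °C. The methods speak of 3 biological replicates per strain without matching them to the 4 wt libraries. Every wt library was therefore kept, and the spread between libraries may be technical. SUA7 is not among the genes measured, and an RTI could not show the allele in any case. An RTI was listed for 314 to 337 genes in each library but wt replicate 4, which has 38. The library medians were 0.0414 to 0.0850 in sua7-1 and 0.00349 to 0.0150 in wt. An RTI fixes only the smallest whole read numbers that could give it, and these were not worked out here. The depth was therefore not assessed, and no counting interval is given. A low RTI may rest on few downstream reads.

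An aminoacyl-tRNA synthetase joins an amino acid to its tRNA, and the charged tRNA is then carried to the ribosome by elongation factor 1A. DPS1 and THS1 both belong to the class II synthetases, which share a catalytic fold that the class I enzymes lack, and separate genes (MSD1 and MST1) serve mitochondria. At the 3′ end of yeast mRNA genes, the cleavage and polyadenylation machinery reads signals in the RNA. Hrp1 binds a UA-rich efficiency element, of which UAUAUA is the strongest form and UAUGUA a variant, and an A-rich positioning element lies after it. Once the RNA is cut, the exonuclease Rat1 degrades the part still being made, and the polymerase leaves the template. RNA beyond the poly(A) site in a run-on library therefore comes from polymerases that have not yet left.

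In R64, DPS1 lies on the reverse strand of chromosome XII from 109902 to 111575 (1674 nt, no intron) and THS1 on the forward strand of chromosome IX from 212499 to 214703 (2205 nt, no intron). Each holds the letters TATGTA within 30 nt of its stop codon and an A-rich run or AATAAA soon after. These stretches are printed because the poly(A) signals that polymerase must pass are of this kind. Motif letters are in capitals, each stretch is given 5′ to 3′ on the gene's own strand from the RefSeq R64 genome, and positions count from 1 at the first base after the stop codon.
DPS1 TATGTA at 22 to 27 (chrXII:109869-109886, reverse strand): cgttttTATGTAgcgagt
DPS1 A run at 40 to 46 (chrXII:109850-109868, reverse strand): gaaggtAAAAAAAttttca
THS1 TATGTA at 9 to 14 (chrIX:214706-214723, forward strand): agatttTATGTAgttaaa
THS1 AATAAA at 52 to 57 (chrIX:214749-214766, forward strand): gtaaagAATAAAatgagt
THS1 TATATA at 196 to 201 (chrIX:214893-214910, forward strand): tacgaaTATATAaaaaca

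TATGTA was found in the first 100 nt after the stop codon of 16.3% of the 331 measured genes that matched the annotation, and of 16.3% of all 6021 protein-coding genes with such a window. AATAAA was found in 29.0% and AAAAAA in 26.0% of the measured genes, and TATGTA together with either in 7.55%. TATATA, present in 33.2% of these windows, was not in the first 100 nt of DPS1 or THS1. THS1 has it farther on, at 196 and 246, and DPS1 has no copy within 300 nt. Matches were counted on the gene's strand. On the other strand of the first 100 nt, DPS1 had 1 match each to AATAAA and AAAAAA, and THS1 had none of the 4 motifs. A match says only that the letters are there, and which of them, if any, set the mRNA 3′ end was not tested.

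The surroundings of the genes differ. After DPS1, the next gene on the same strand is COX19, an assembly factor of cytochrome c oxidase, which begins after a gap of 929 nt. The next gene on the opposite strand, SPA2, ends 4554 nt away, so no annotated gene lies in the first 929 nt on either strand. After THS1, the convergent gene RCI37 ends 287 nt from the stop codon and runs to 1250 nt, so the downstream window of THS1 takes in part of it wherever in this gap the mRNA ends. RCI37 is transcribed toward THS1 from the other strand, and GRO-seq as described for this study keeps the strand of the RNA. The account of how the index was counted does not mention strand, and a part of RCI37 reads in the THS1 index was not tested. The next gene on the strand of THS1 is SEC28, a coatomer subunit gene, 1954 nt away. The replication origin ARS901 spans the end of THS1, from the last codons to 51 nt after the stop codon. None of these neighbours is among the 337 genes.

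**Figure D1:**
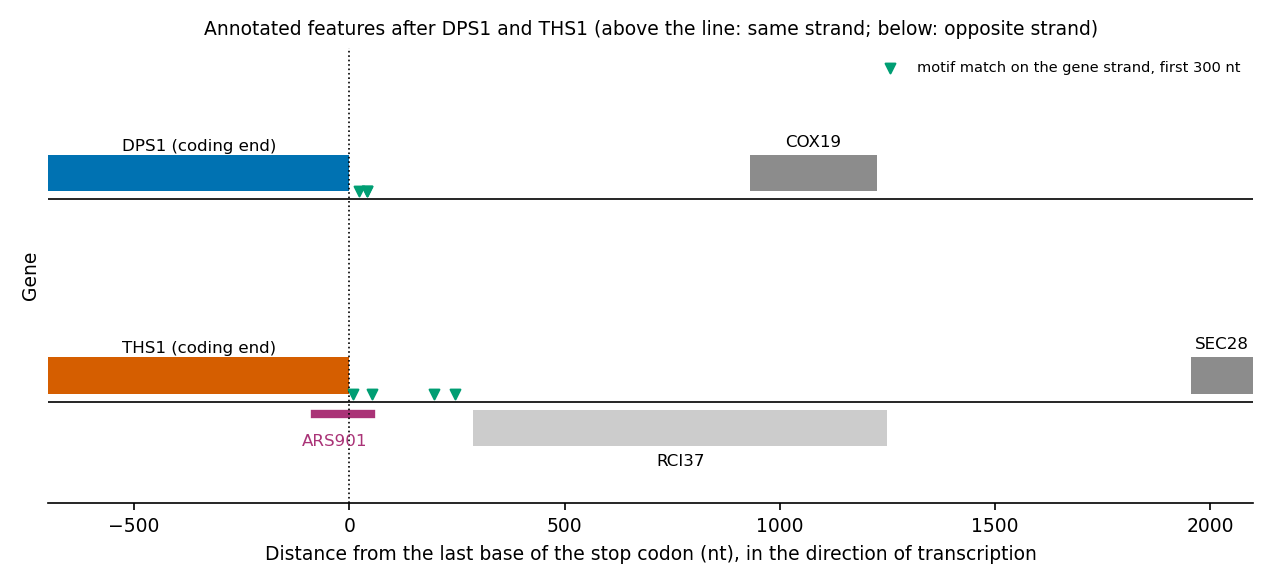
Annotated features after DPS1 and THS1 against distance from the stop codon in nt. Bars above each line are genes of the same strand, bars below are genes of the opposite strand, and triangles mark matches to the 4 motifs within 300 nt. DPS1 is followed by 929 nt without a gene, whereas RCI37 ends 287 nt after THS1 and ARS901 overlaps its end.

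DPS1 had a higher RTI in every sua7-1 library than in any wt library. In sua7-1 the RTI of DPS1 was 0.0718 (replicate 2), 0.0850 (replicate 3) and 0.0721 (replicate 4). In wt it was 0.0293 (replicate 1), 0.0109 (replicate 2) and 0.0105 (replicate 3), and wt replicate 4 lists none. The sua7-1 libraries lay close together, and among the wt libraries replicate 1 stood above the others. The sua7-1 mean of 0.0763 ± 0.00754 (SD, n = 3) was 4.51 times the wt mean of 0.0169 ± 0.0108 (SD, n = 3). Its lowest sua7-1 library was 2.45 times its highest wt library. The ratio of means depended on wt replicate 1, without which the wt mean was 0.0107 ± 0.00034 (SD, n = 2) and the ratio 7.13.

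THS1 also had a higher RTI in every sua7-1 library, with a wider distance between the strains. In sua7-1 the RTI of THS1 was 0.145 (replicate 2), 0.151 (replicate 3) and 0.126 (replicate 4). In wt it was 0.00823, 0.0110, 0.00269 and 0.00837 in replicates 1 to 4. All wt libraries were low, with replicate 3 the lowest, and the groups did not overlap. The sua7-1 mean of 0.141 ± 0.0133 (SD, n = 3) was 18.6 times the wt mean of 0.00757 ± 0.00349 (SD, n = 4). The lowest sua7-1 library was 11.4 times the highest wt library. Leaving out any library kept the ratio between 15.3 and 21.9. The wt RTIs of THS1 are low and may rest on few downstream reads, so the size of these ratios is uncertain.

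On the log2(RTI + 0.002) scale, the fold change fitted with limma was 2.19 (standard error 0.53) for DPS1 and 3.99 (standard error 0.48) for THS1. The median over all 337 genes was 2.44, so DPS1 lay 0.25 below it and THS1 1.55 above it. Ordered by fold change, THS1 was at place 26 of 337 and DPS1 at place 191. Calls required an absolute log2 fold change above 1 with a limma p under 0.05 after Benjamini-Hochberg adjustment. They were made for 75.1% of all genes as higher in sua7-1 (253 genes) and for 0.890% as lower (GPM1, RPS12 and ARO8, named after their values were seen). Both DPS1 and THS1 are among the 253, and both are among the 78.3% of genes with every sua7-1 library above every wt library, against 2.67% with every sua7-1 library below. Nothing is read from this, since the same values chose both genes.

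The 2 genes did not hold the same order in both strains. Within the sua7-1 libraries, the RTI of THS1 was 2.02, 1.78 and 1.74 times that of DPS1 in replicates 2, 3 and 4. In wt replicates 1 and 3 the order was the opposite, with DPS1 at 3.56 and 3.89 times THS1, and in wt replicate 2 the genes were level, at 0.0109 and 0.0110. On the log2(RTI + 0.002) scale, THS1 minus DPS1 was 0.86 ± 0.11 (SD, n = 3) in sua7-1 and -1.01 ± 0.88 (SD, n = 3) in wt. This difference uses the values by which the genes were chosen and was not tested. The opposite order in wt replicates 1 and 3 rests on THS1 RTIs of 0.00823 and 0.00269, which may come from few downstream reads.

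Set against the other genes of each library, DPS1 stood above the median in wt and nearer to it in sua7-1. The RTI of DPS1 was 2.07, 3.14 and 2.28 times the library median in wt replicates 1, 2 and 3, and 1.74, 1.00 and 1.06 times in sua7-1 replicates 2, 3 and 4. By rank, DPS1 was above 69.2%, 70.7% and 68.5% of genes in these wt libraries and above 65.0%, 49.8% and 52.5% in the sua7-1 libraries. In sua7-1 replicate 3 DPS1 is itself the median gene. THS1 showed the opposite in most libraries. The RTI of THS1 was 0.580, 0.585 and 0.557 times the median in wt replicates 1, 3 and 4, and 3.50, 1.78 and 1.85 times in sua7-1. The median of wt replicate 4 is over 38 genes, against 325 and 336 in wt replicates 1 and 3, so its ratio has another basis. The exception was wt replicate 2, the library with the lowest median, where THS1 stood at 3.15 times the median, so that the strains overlapped for THS1 on this scale. For DPS1 they did not, and it was lower in sua7-1 on this scale.

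**Figure D2:**
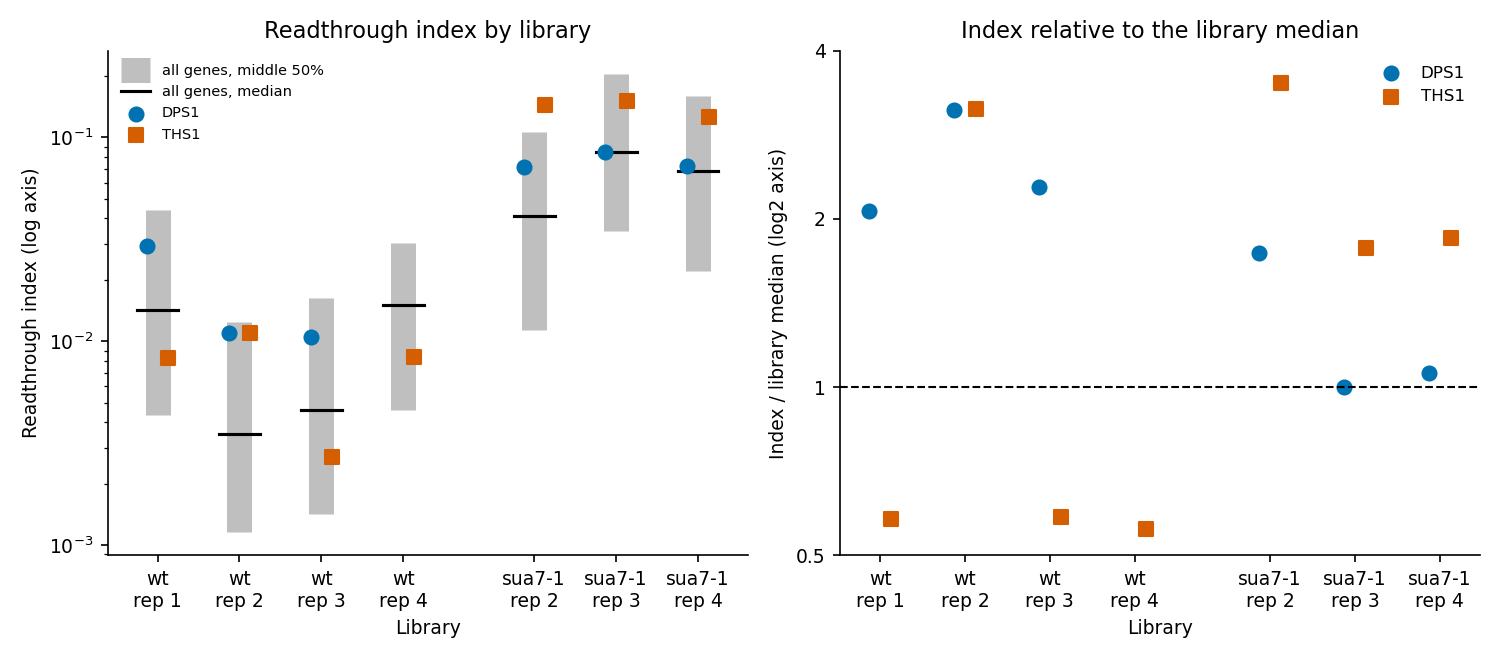
Left, RTI of DPS1 (circles) and THS1 (squares) in each library on a log axis, with the middle 50% (grey) and median (line) of all genes listed in that library (38 in wt replicate 4). Right, the RTI divided by the library median on a log2 axis, where DPS1 lies at 2.07 or more in wt and at 1.74 or less in sua7-1 and THS1 lies under 1 in wt replicates 1, 3 and 4 and at 1.78 or more in sua7-1.

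Dividing each library by its median RTI before the fit removes a shift shared by most genes, and leaves a median log2 fold change of -0.20 over all genes. On that scale DPS1 had a log2 fold change of -0.93 (standard error 0.32) and THS1 one of 1.21 (standard error 0.58). Neither was called, and 6.23% of genes were called higher in sua7-1 and 16.9% lower. The THS1 value includes wt replicate 4, whose median is over 38 genes only. The direction for DPS1 thus turned with this scaling, while that for THS1 stayed. The sua7-1 library medians (0.0414 to 0.0850) all lay above those of wt (0.00349 to 0.0150). Dividing by them takes out whatever the strains differ by in most genes, along with differences between libraries. The scaled values are thus changes relative to the library median, and the source of the shared shift was not tested.

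The sua7-1 libraries gave closely similar values for both genes although the libraries themselves differed. The median RTI of sua7-1 replicate 3 was 2.06 times that of replicate 2, and over the 293 genes with such a ratio the median was 2.12. The ratio was 1.18 for DPS1 and 1.04 for THS1. Counting changes in either direction by their size on the log2 scale, 15 of the 293 genes changed less than DPS1 and 4 changed less than THS1. Across the 3 sua7-1 libraries, the SD of log2(RTI + 0.002) was 0.14 for DPS1 and 0.14 for THS1, against a median of 0.58 over 302 genes, and 7 and 8 genes had a smaller one. In wt replicates 1 to 3 their SDs were 0.75 and 0.77, near the median of 0.70 over 321 genes. With each library divided by its median, the SDs in sua7-1 were 0.40 for DPS1 and 0.52 for THS1, above the median of 0.25. Their small spread on the original scale is thus a spread that did not follow the other genes of these libraries. How it compares with counting error was not tested. Of the 302 genes, 73.5% had sua7-1 replicate 3 highest and replicate 2 lowest, as DPS1 did, whereas THS1 had its lowest value in replicate 4. A small spread enters the values by which genes of this kind are picked out, so these ranks are a description.

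**Figure D3:**
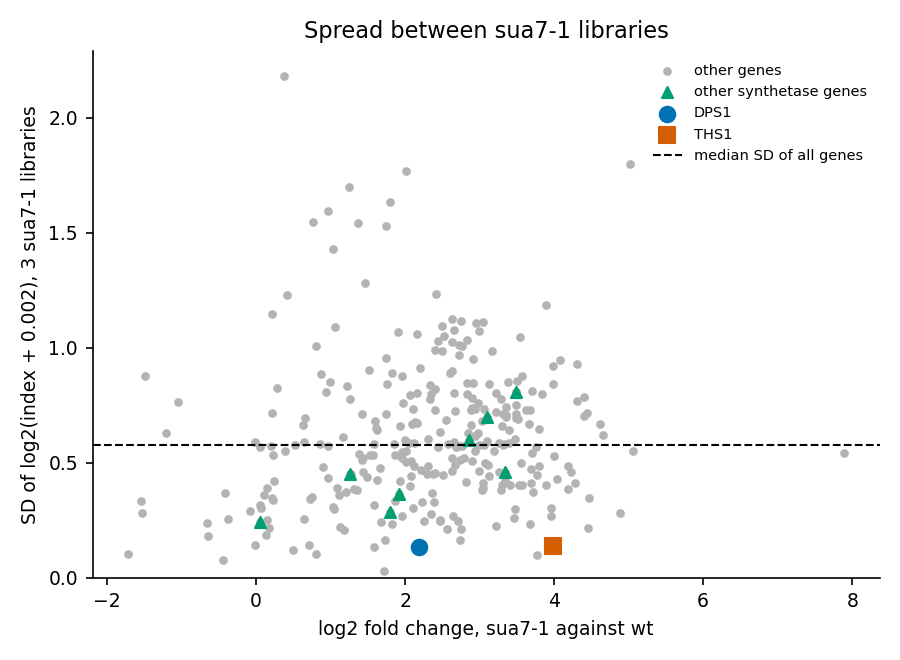
Spread between the 3 sua7-1 libraries (SD of log2(RTI + 0.002)) against the log2 fold change of sua7-1 over wt, 1 point per gene with 3 sua7-1 values. DPS1 and THS1 lie at 0.14, below the dashed median of 0.58 and below each of the other synthetase genes (triangles).

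The gene closest to DPS1 over the 6 libraries other than wt replicate 4 was LEU1, an isomerase of leucine synthesis. Likeness was the root mean square difference of log2(RTI + 0.002), which was 0.28 for LEU1, 0.29 for RPL2A, whose product is in the large ribosomal subunit and whose reads may be split with its near-identical copy RPL2B, and 0.34 for ARB1, an ATPase of ribosome biogenesis. Closest to THS1 were HOR7, a small gene induced by osmotic stress, at 0.41, RPP2B, a protein of the ribosomal stalk, at 0.62, and ABF2, which packages mitochondrial DNA, at 0.63. The genes nearest to THS1 were thus farther from it than those nearest to DPS1. Among the 285 other genes with all 6 values, THS1 came at place 82 for DPS1 and DPS1 at place 47 for THS1, with a difference of 1.07. They are thus not each other's nearest genes in these libraries.

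Of the 23 genes listed for cytosolic aminoacyl-tRNA synthetases and their cofactor ARC1, 10 were measured, and of the 14 for mitochondrial ones none was. Of the 8 measured besides DPS1 and THS1, 7 were called higher in sua7-1, none lower and 1 in neither direction, beside 75.1% higher over all genes. These 8 had a median log2 fold change of 2.39, beside 2.44 for all genes. With libraries divided by their median, none of the 10 was called higher and 2 (CDC60 and TYS1) were called lower. Over all genes that scale had 6.23% called higher and 16.9% lower.

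Among the class II enzymes, FRS2, the alpha subunit of phenylalanyl-tRNA synthetase, ran from 0.0472 (replicate 2) to 0.146 (replicate 3) in sua7-1 and from 0.00136 (replicate 2) to 0.0156 (replicate 1) in wt. FRS2 rose by 3.49 on the log2 scale (adjusted p = 0.000915 from limma). KRS1, the lysyl-tRNA synthetase gene, rose by 1.92 (adjusted p = 0.0094 from limma), from 0.0116 ± 0.00826 (SD, n = 4) to 0.0421 ± 0.0108 (SD, n = 3), with -0.69 after division by library medians. YHR020W, the prolyl-tRNA synthetase gene, had almost no signal after the poly(A) site. Its RTI was 0.000675 in sua7-1 replicate 2 and 0.000589 in wt replicate 1, and all other libraries list YHR020W at 0. It did not pass the test (log2 fold change 0.05, adjusted p = 0.93 from limma).

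All 5 class I enzymes measured were called higher, beside 75.1% of all genes, with log2 fold changes from 1.26 to 3.34. GLN4, for glutamine, rose by 3.34 (adjusted p = 0.00073 from limma), and VAS1, for valine, by 3.10 (adjusted p = 0.000915). YDR341C, for arginine, rose by 2.86 (adjusted p = 0.00079) from a wt mean of 0.00107. CDC60, for leucine, rose by 1.80 (adjusted p = 0.0093), a call that was lost without wt replicate 3 and a direction that turned (-1.24) with library medians divided out. TYS1, for tyrosine, had the highest RTI of the 10 genes in both strains, at 0.251 ± 0.0467 (SD, n = 3) in wt and 0.618 ± 0.178 (SD, n = 3) in sua7-1. It rose by 1.26 (adjusted p = 0.035 from limma), lost the call without sua7-1 replicate 3, sua7-1 replicate 4, wt replicate 2 or wt replicate 3, with a pseudocount of 0.0005 and with the replicate number as a block, and turned to -2.06 with library medians divided out.

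Within the 10 genes, THS1 had the largest log2 fold change and DPS1 the sixth. By mean RTI in wt, DPS1 was the fourth and THS1 the seventh, and in sua7-1 THS1 was the fourth and DPS1 the sixth. Neighbours in this order were often not apart. In sua7-1 the range of THS1 (0.126 to 0.151) overlapped those of GLN4 (0.124 to 0.235) and VAS1 (0.120 to 0.318) above it and of FRS2 below it. The range of DPS1 (0.0718 to 0.0850) lay inside that of FRS2 and above that of CDC60, whose highest library had 0.0592. In wt the ranges of DPS1 and THS1 overlapped.

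**Figure D4:**
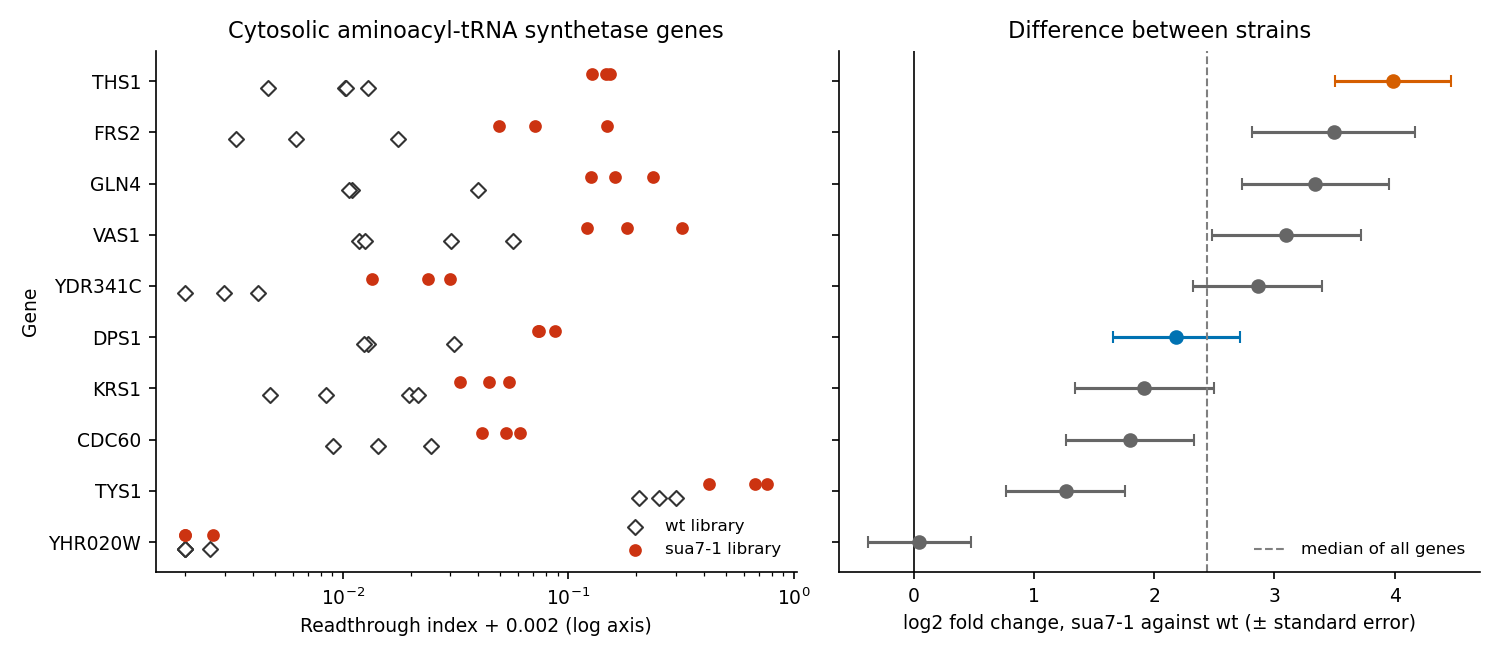
Left, RTI + 0.002 of the 10 measured cytosolic synthetase genes on a log axis, 1 point per library (diamonds wt, circles sua7-1). Right, log2 fold change of sua7-1 over wt with its standard error from limma, with the median of all 337 genes (2.44) as a dashed line. THS1 is at the top with 3.99, DPS1 near the middle with 2.19 and YHR020W at 0.05, before any division by library medians, which turns DPS1 to -0.93.

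The genes that make aspartate and threonine, the amino acids that DPS1 and THS1 use, were represented by 4 of 7 listed. All 4 were called higher in sua7-1, with log2 fold changes of 4.61 for THR4 (threonine synthase), 2.98 for HOM6 and 1.38 for HOM2, both in the shared steps from aspartate, and 2.89 for HOM3 (aspartate kinase), whose wt values come from 2 libraries. The HOM2 call was lost without sua7-1 replicate 3 or replicate 4, and with library medians divided out HOM2 (-1.60) and HOM3 (-0.85) were below 0. Of 38 translation factor genes listed, 11 were measured, and 10 were called higher and none lower, with a median log2 fold change of 2.88. They ranged from SUP35, a release factor, which rose by 4.18, to DED1, an RNA helicase of initiation, with -0.01, which did not pass the test and was called lower once libraries were divided by their median. These shares stand beside 75.1% over all genes, and the lists were not tested against the rest.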

How the data were processed

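The values are ratios, the readthrough indices (RTI) deposited by the authors for 3 sua7-1 and 4 wt libraries. The authors trimmed adapters with cutadapt, aligned reads to S288C (R64-3-1 in the methods, R64 in the submitters' processing notes, with no aligner named), and took the ratio of reads in both windows around the SGD mRNA 3′ end. They analysed expressed mRNAs with no gene of the same strand within 500 nt of the 3′ end. Every gene in the table has 5 or more values, 2 or more of them in each strain. The deposited means, log2 ratios and p-values of the authors were not used. Repeats of 166 genes further down the table, THS1 included, held equal values and were left out with 2 rows of another gene. No value above 0 was equal between libraries.

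Strain was the single factor of a limma fit (version 3.58.1, R 4.3.3) to log2(RTI + 0.002) of all 337 genes. The pseudocount of 0.002 understates changes of genes near it. The limma step was tested on simulated data. DPS1, THS1 and the 4 gene lists were chosen with earlier results of these data known. Other genes were named by rule: the 3 most like each, the measured synthetase and aspartate or threonine genes, the nearest downstream genes, and the translation factors with the largest and smallest change. Symbols came from RefSeq R64, which matched 331 genes. Tables and figures were made in Python 3.11.15 with pandas 2.3.3 and matplotlib 3.10.9. Alternatives were other pseudocounts, filters, zeros treated as missing, limma with trend and robust estimation, division by library medians, leaving out libraries, and a block for the replicate number.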

Additional observations from a re-analysis of the deposited data

Results flagged for a closer look

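Of 5 genes with values in all 4 wt libraries that were examined, YHR020W had a wt library that stood apart. It was listed at 0.000589 in wt replicate 1 and at 0 in the other wt libraries. With the other wt libraries at 0, any value above 0 would have been flagged. The chance rate of about 1 in 20 such groups therefore does not apply to YHR020W.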

How the results depend on the processing

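Dividing libraries by their median RTI changed most. It left 21 genes called higher and 57 lower, 0 of the 10 synthetase genes higher, and log2 fold changes of 1.21 for THS1 and -0.93 for DPS1. CDC60 (-1.24), KRS1 (-0.69), TYS1 (-2.06), HOM3 (-0.85), HOM2 (-1.60), LEU1 (-0.58), RPL2A (-0.90) and ARB1 (-0.48) turned below 0 as well. With a pseudocount of 0.01, 5 genes were called lower and THS1 had 3.12, and 1 of the 3 genes most like it stayed in place, a comparison chosen after the data were seen. Leaving out each library gave 213 to 277 genes higher, 2 to 4 lower, 7 to 9 synthetase genes higher, 1.96 to 2.62 for DPS1 and 3.67 to 4.16 for THS1, and THS1 minus DPS1 of 0.80 to 0.90 in sua7-1 and -1.51 to -0.70 in wt.

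Same-numbered libraries of the strains showed no clear shared deviation, with correlations of 0.13, -0.02 and -0.03 for numbers 2, 3 and 4. The correlations are across 311, 324 and 38 genes, and pairs with other numbers ran from -0.20 to 0.22. The numbers were therefore not taken as pairs. A replicate block over these 6 libraries could be fitted for 302 genes and called 240 genes higher, 3 lower and 8 synthetase genes higher. The same libraries without it, where 337 genes were fitted, gave 277, 4 and 9 (chosen after the data were seen). Of the 240 genes, 239 were called higher in both fits. The block gave 2.66 for DPS1 and 4.05 for THS1. DPS1 has no value in wt replicate 4, so its estimate under the block rests on replicates 2 and 3 only. Read numbers behind an RTI were not worked out, so counting error is not given for any value.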
